A study of Mus musculus with 2 samples.

Results

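High-mitochondrial barcodes are described here: cell barcodes with at least 200 detected genes and more than 10% of their UMIs from genes whose symbols start with mt-. UMIs, unique molecular identifiers, count captured RNA molecules. The rule found 180 such barcodes among 4000 in 2 single-cell libraries of sorted mouse cortical microglia, 105 of 2000 in one library and 75 of 2000 in the other. The barcodes were chosen by this measured share, so their mitochondrial content is a description and not a finding. They were set against the 872 low-mitochondrial barcodes of the same libraries, which had as many genes and a share of 10% or less. Every level below was computed after mt- UMIs were removed, scaled to the remaining UMIs of the barcodes summed, as counts per 1000000 UMIs (CPM).

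Mitochondrial DNA encodes 13 proteins, all subunits of the respiratory chain or of ATP synthase, and their transcripts stay inside the organelle. The other subunits are encoded in the nucleus and translated in the cytosol. In droplet data the mitochondrial share is widely used to filter barcodes, because it is high in cells that have lost cytoplasmic RNA, in debris that carries mitochondria, and in cell types rich in mitochondria such as neurons and astrocytes. Which of these applies to a given barcode was not tested.

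Both libraries came from male 5xFAD hemizygous mice on C57BL/6J, a transgenic model that deposits amyloid beta in the brain, aged 5.5 months by the labels. The mice received 5 uL of Visudyne, a photosensitiser, into the cisterna magna at 4 months of age and again 3 weeks later, and tissue was taken 3 weeks after that. In the Visudyne library, the control, Visudyne was given alone. In the Visudyne/photoconversion library the injection was followed by 5 steps of transcranial photoconversion with red light of 689 nm, used to ablate meningeal lymphatic vessels. Cortical cells were sorted as SYTOX-negative (membrane-intact), Ly6G-negative, CD45- and CD11b-positive singlets. Each library pooled 3 mice, and there was 1 library per group, so library and treatment cannot be told apart. No test was made: intervals are exact 95% intervals and cover counting error only.

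Total depth was 2672902 UMIs for the control library and 2038693 for the other, of which 5.04% and 5.1% were mitochondrial. The 2 libraries shared 27 barcode sequences, and 0 of these were high-mitochondrial in both. Barcodes below 200 genes numbered 1340 and 1608, and 55.8% and 47.1% of them also had over 10% mitochondrial UMIs. Below, pairs of values give the control library first and the photoconversion library second. A level given against another sets high- against low-mitochondrial barcodes, and a ratio is the first level divided by the second. A gene with 0 UMIs in the high-mitochondrial barcodes can still stand at up to 38 and 38.6 CPM, the level of 3 UMIs.

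High-mitochondrial barcodes made up 105 of 660 barcodes with enough genes in the control library (15.9%, 13.2 to 18.9%). After photoconversion they made up 75 of 392 (19.1%, 15.4 to 23.4%). The difference of 3.22 percentage points had an interval from -1.61 to 8.26, which includes 0. They held 23% and 25.6% of the mitochondrial UMIs of barcodes with enough genes, and only 4.09% and 5.14% of all their UMIs. These barcodes were shallow. Without mt- UMIs their median depth was 551 UMIs in the control library, from 251 to 6255, and 770 after photoconversion, from 271 to 9151. Low-mitochondrial barcodes had medians of 2588 and 3253. Median detected genes were 341 and 393, against 922 and 1120. Few were deep: 4 of 105 (3.81%) and 5 of 75 (6.67%) held at least 2000 such UMIs, against 58.9% and 71.3% of low-mitochondrial barcodes. Depth therefore moves with every comparison below. For some lists and genes, levels are also given against low-mitochondrial barcodes weighted to the same distribution of depth. Ratios given without such a value may move with depth as well.

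**Figure D1:**
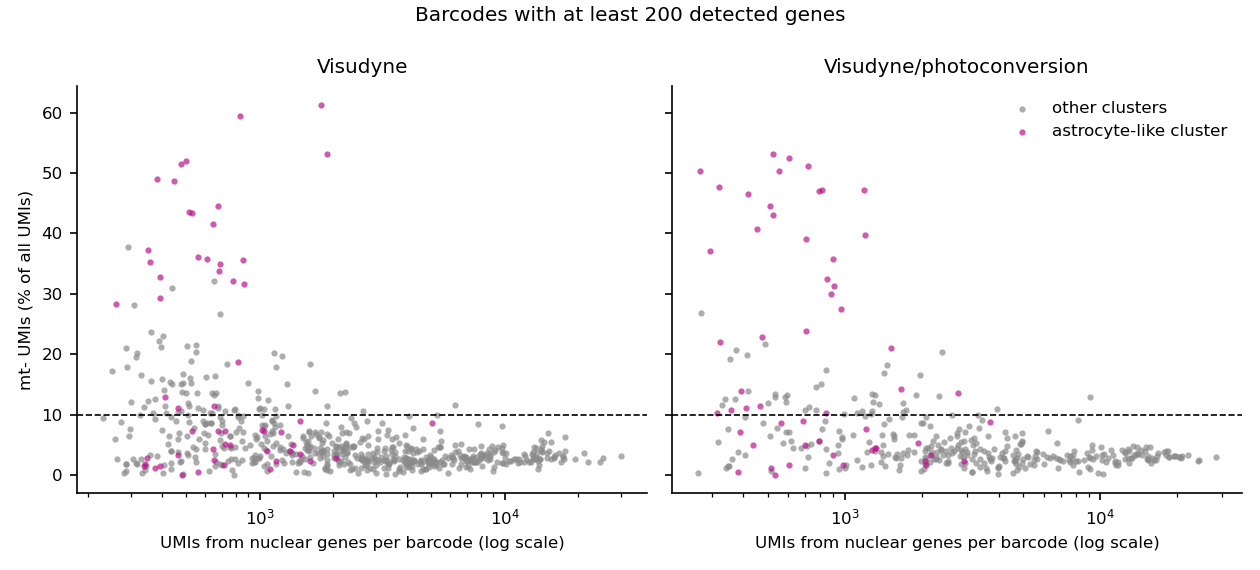
Mitochondrial share (mt- UMIs as % of all UMIs) against UMIs left without mt- genes (log scale) for each barcode with at least 200 genes, 1 panel per library, with the 10% limit as a line and barcodes of the astrocyte-like cluster coloured. Barcodes above the limit lie at low depth, with medians of 551 and 770 UMIs, and those of the astrocyte-like cluster reach the highest shares.

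The limit itself cut through a continuous range. The 27 and 20 barcodes just inside it, at 10 to 12%, had microglia markers at 137531 and 170662 CPM. The 41 and 19 just outside, at 8 to 10%, had them at 109345 and 154830 CPM. Astrocyte markers stood at 1186 and 925 CPM inside and 3359 and 848 CPM outside. Nuclear-encoded oxidative phosphorylation genes stood at 8339 and 7913 CPM inside and 11118 and 8117 CPM outside. Median depth was 651 and 917.5 UMIs inside and 853 and 1991 outside.

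The mix of mitochondrial transcripts differed little between high- and low-mitochondrial barcodes for the most abundant genes. mt-Atp6 (ENSMUSG00000064357, chrM:7927-8607 in mm10), an ATP synthase subunit, made up 20.5% and 19.7%, against 19.8% and 20.3% of mitochondrial UMIs. mt-Co3, a cytochrome c oxidase subunit (ENSMUSG00000064358, chrM:8607-9390), made up 17.1% and 17%, against 17.1% and 17.3%. The catalytic oxidase subunit mt-Co1 (ENSMUSG00000064351, chrM:5328-6872) took 13.7% and 13.5%, against 13.5% and 13%, and the complex I subunit mt-Nd1 (ENSMUSG00000064341, chrM:2751-3707) took 12.8% and 12.5%, against 13.3% and 12.8%. Shares that stood further apart were those of mt-Nd2 (5.8% and 6.33%, against 5.07% and 5.13%), also of complex I, and of mt-Cytb (10.1% and 10.1%, against 11.4% and 11.2%), of complex III. Barcodes of the astrocyte-like cluster described below had more mt-Co1, 15.3% and 14.5%, than other high-mitochondrial barcodes, at 11.5% and 12.1%, and less mt-Cytb, 8.77% and 9.73% against 11.8% and 10.7%.

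When all barcodes with enough genes were clustered without mt- genes, high-mitochondrial barcodes did not form 1 group. A cluster of 111 barcodes, astrocyte-like by Gfap, Slc1a2, Mt3 and Clu among its 10 leading genes, held 27 of 105 high-mitochondrial barcodes of the control library (25.7%) and 33 of 75 after photoconversion (44%). It held 29 of 555 (5.23%) and 22 of 317 (6.94%) low-mitochondrial barcodes. The cluster held RNA of other cells too: with barcodes thinned to 300 UMIs, astrocyte UMIs were found in 70.9% and 71.7% of its barcodes, oligodendrocyte UMIs in 63.6% and 45.3%, neuron UMIs in 23.6% and 26.4% and microglia UMIs in all. In microglia-like clusters, astrocyte UMIs were found in 6.96% and 7.46%, oligodendrocyte UMIs in 32% and 28.1% and neuron UMIs in 0.398% and 1.02%, at median depths of 2618 and 3142 UMIs before thinning, against 677 and 718. The name did not hold when thinned barcodes were clustered: the matching cluster of 41 barcodes, all from the astrocyte-like one, was led by Kif5a, Pcsk1n, Camk2n1 and Bc1 and met no naming rule. Clusters named microglia-like held 47 and 36 high-mitochondrial barcodes, and of these a shallow cluster of 216 barcodes took 32 and 13. Unnamed clusters held 31 and 6. The largest of these for the control library, led by Slc1a3, Clk1, Srgap2, Malat1 and Stab1, took 23 barcodes there (21.9%) and 5 after photoconversion (6.67%), beside 5.23% and 1.89% of low-mitochondrial barcodes. The 3 deepest clusters of over 100 barcodes, with median depths of 10236, 4099.5 and 2633 UMIs, took 1, 1 and 2 high-mitochondrial barcodes of the control library and 6, 1 and 3 after photoconversion. So the barcodes are a range of mitochondrial share and not 1 cell type. The clusters were built on the genes described below, so gene levels set between clusters are descriptions.

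**Figure D2:**
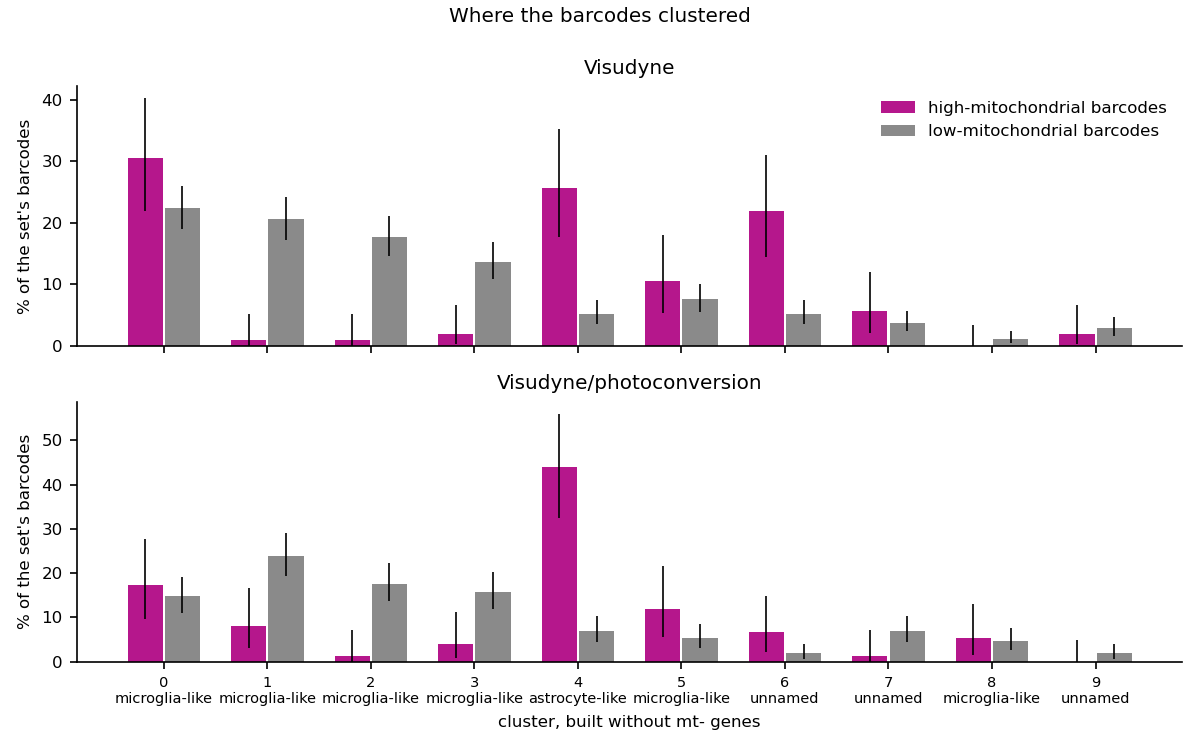
Share of high- and low-mitochondrial barcodes in each of 10 clusters built without mt- genes (bars, % of the set's barcodes in that library, with exact 95% intervals), Visudyne above and Visudyne/photoconversion below. The astrocyte-like cluster 4 took 25.7% and 44% of high-mitochondrial barcodes, and clusters 1 to 3 at most 8% each.

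The mitochondrial share itself differed between these kinds of barcode. High-mitochondrial barcodes of the astrocyte-like cluster had median shares of 35.7% and 35.8% in the 2 libraries, against 13.9% and 12.9% in the other high-mitochondrial barcodes. Their median depths without mt- UMIs were 561 and 601 UMIs, against 550 and 916. Low-mitochondrial barcodes of the same cluster had median shares of 3.5% and 4.26%, and their microglia markers stood at 38559 and 46880 CPM, beside 39634 and 51934 CPM in the high-mitochondrial ones.

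Splitting the barcodes at 15, 20 and 40% mitochondrial UMIs gave bands of 44, 23, 27 and 11 barcodes in the control library and 39, 7, 16 and 13 after photoconversion. Bands of under 20 barcodes are thin and are read only beside the other library. The astrocyte-like cluster held 6.82, 4.35, 44.4 and 100% of these bands in the control library and 20.5, 0, 75 and 100% after photoconversion. So every barcode above 40% fell in it in both libraries, and at most 20.5% of a band below 20%.

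Gene levels differed between the bands. Median depths without mt- UMIs were 646, 521, 439 and 532 in the control library and 846, 842, 777 and 524 after photoconversion. The 12 microglia markers, among them C1qa and Ctss, stood at 140561, 148111, 86910 and 39760 CPM from the lowest to the highest band in the control library, and at 158222, 152321, 81332 and 32292 CPM after photoconversion. Nuclear-retained RNA, nearly all of it Malat1, stood at 45132, 58800, 31552 and 0 CPM and at 24566, 38011, 11856 and 521 CPM. The 0 UMIs of the control library above 40% leave an exact upper limit of 425 CPM. Both lists were lowest above 40% in both libraries. Astrocyte markers stood at 1086, 471, 3980 and 12562 CPM and at 1152, 275, 7401 and 16016 CPM, and nuclear-encoded oxidative phosphorylation genes at 8254, 7207, 23522 and 41374 CPM and at 10040, 9365, 24921 and 37109 CPM. Cytosolic ribosomal protein genes, the subunits of the translating ribosome, stood at 137158, 75571, 196063 and 288349 CPM and at 197131, 136483, 237502 and 294141 CPM. These 3 lists were highest above 40% in both libraries.

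**Figure D3:**
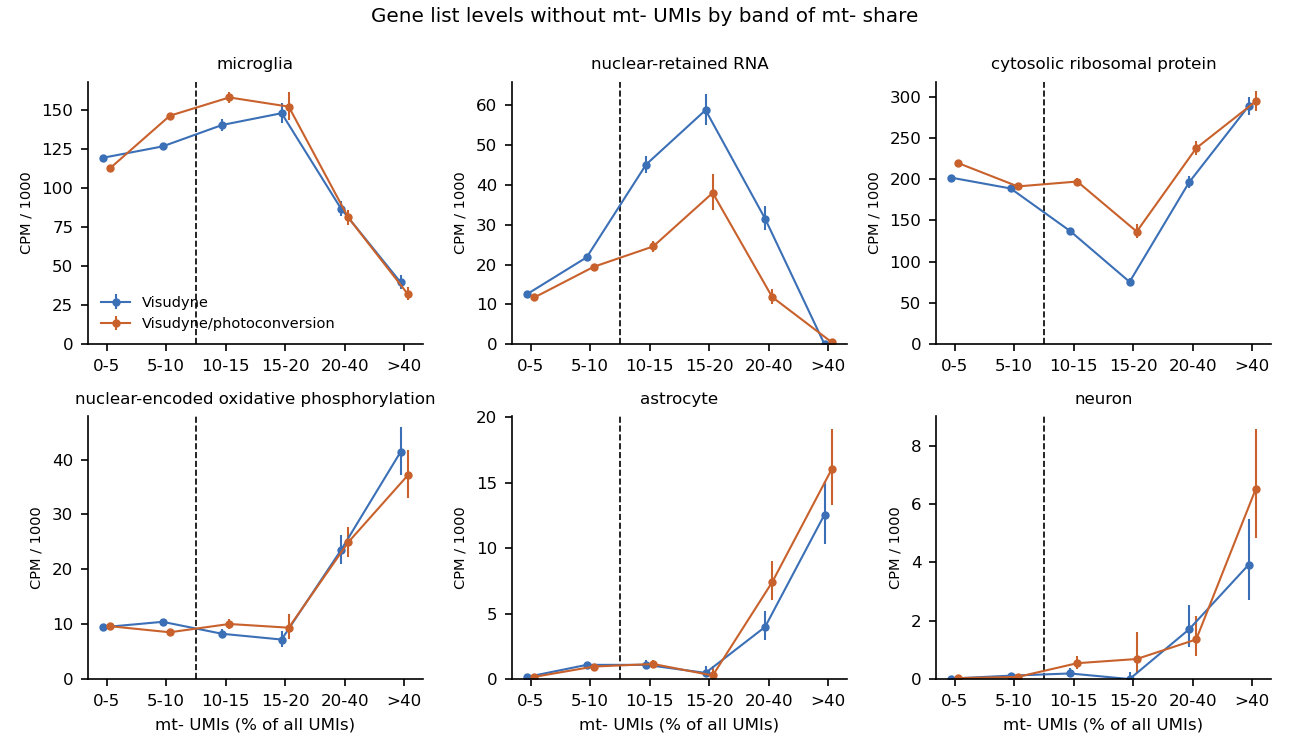
Summed level of 6 gene lists (CPM divided by 1000, without mt- UMIs, with exact 95% Poisson intervals) by band of mitochondrial share, for both libraries, with a dashed line at the 10% limit. Microglia markers and nuclear-retained RNA are low above 40%, where astrocyte markers reach 12562 and 16016 CPM.

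Across single genes, the barcodes differed from low-mitochondrial ones in both directions. A gene counted as measured with at least 20 expected UMIs in the smaller set, and a difference past 1.5-fold was counted, with no test. In the control library 36 of 470 measured genes (7.66%) were higher and 139 (29.6%) lower past that fold. After photoconversion 27 of 451 (5.99%) were higher and 86 (19.1%) lower. In both libraries 17 of 441 (3.85%) were higher and 56 (12.7%) lower. The limit on mitochondrial share set this contrast, so nothing is read from these counts. In such sums, fewer barcodes with a gene and less of its RNA per barcode cannot be told apart. The median log2 ratio of all measured genes was -0.33 and -0.19, and list medians below are read beside it. Counts of list genes past 1.5-fold in both libraries are likewise read beside the shares of 3.85% and 12.7%. Against low-mitochondrial barcodes weighted to the same depths, 21 genes were higher and 11 lower of 397, and 7 of each were among those above. With TMM scaling computed on all genes the counts were 3 higher and 252 lower, and with TMM scaling on measured genes 28 higher and 14 lower.

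The limit of 20 expected UMIs is taken on both sets together, so it left out genes nearly absent from the larger low-mitochondrial set. Slc1a2 and Mbp, with higher ratios given below, are among these. Among the genes that met it in both libraries, the 12 named for the highest ratios included 5 subunits of the respiratory chain or ATP synthase. Cox8a (ENSMUSG00000035885, chr19:7215153-7217616), a cytochrome c oxidase subunit, stood at 2366 and 2884 CPM, against 902 and 878 CPM. Cox6a1, another subunit of that enzyme, stood at 1784 and 1570 CPM, against 653 and 654 CPM. Ratios were 2.21 and 3.35 for Usmg5, a subunit of ATP synthase, 2.14 and 2.06 for Cox6c and 1.64 and 1.57 for Cox4i1. Lysosomal enzymes were among them, with 2.18 and 1.95 for the mannosidase Man2b1 and 1.71 and 1.56 for cathepsin C. So were Lag3, an inhibitory receptor that microglia also express, at 2.52 and 1.74, the iron carrier transferrin (Trf) at 1.61 and 1.68, and the splicing-related gene Rbm39 at 1.61 and 1.66. Against depth-weighted barcodes Man2b1 had 1.75 and 1.68 and Cox8a 3.44 and 3.53, while Lag3 had 1.34 and 0.858 and Rbm39 0.895 and 0.931.

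The 12 named for the lowest ratios included 2 chemokines, 4 genes of the actin cytoskeleton and the disease-associated genes Cst7 and Lpl, and also Ank, Anxa3, Cd52 and Lmo2. The chemokine Ccl4 had 12 and 20 UMIs in the high-mitochondrial barcodes and ratios of 0.201 (0.103 to 0.351) and 0.428 (0.26 to 0.664). For Ccl3 they were 0.373 (0.243 to 0.549) and 0.428 (0.288 to 0.614). The cytoskeletal genes Actg1, Arpc2, Cotl1 and Coro1a had 0.47 and 0.473, 0.494 and 0.499, 0.516 and 0.478 and 0.516 and 0.392. These genes encode an actin, a subunit of the actin-branching complex and a pair of actin-binding proteins. Cst7, an inhibitor of lysosomal proteases raised in disease-associated microglia, stood at 1556 and 2008 CPM, against 3134 and 3759 CPM. The lipase Lpl had ratios of 0.376 and 0.507. Weighting by depth brought Cst7 to 0.951 and 1.07 and Lpl to 0.919 and 1.05, but left Cotl1 at 0.574 and 0.602 and Coro1a at 0.541 and 0.421. Of the 4 cytoskeletal genes, only Cotl1 was among the 11 counted lower in both libraries with depth weighting, of 397 measured. A gene with too few expected UMIs was not counted there. The 11 also held 2 actin-related genes outside the 12 named here. Log2 ratios there were -0.61 and -0.65 for Arpc4 and -1.19 and -0.69 for Pfn1. So lower levels at like depth were counted for single cytoskeletal genes, and are not shown for the 4 named ones as a group.

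**Figure D4:**
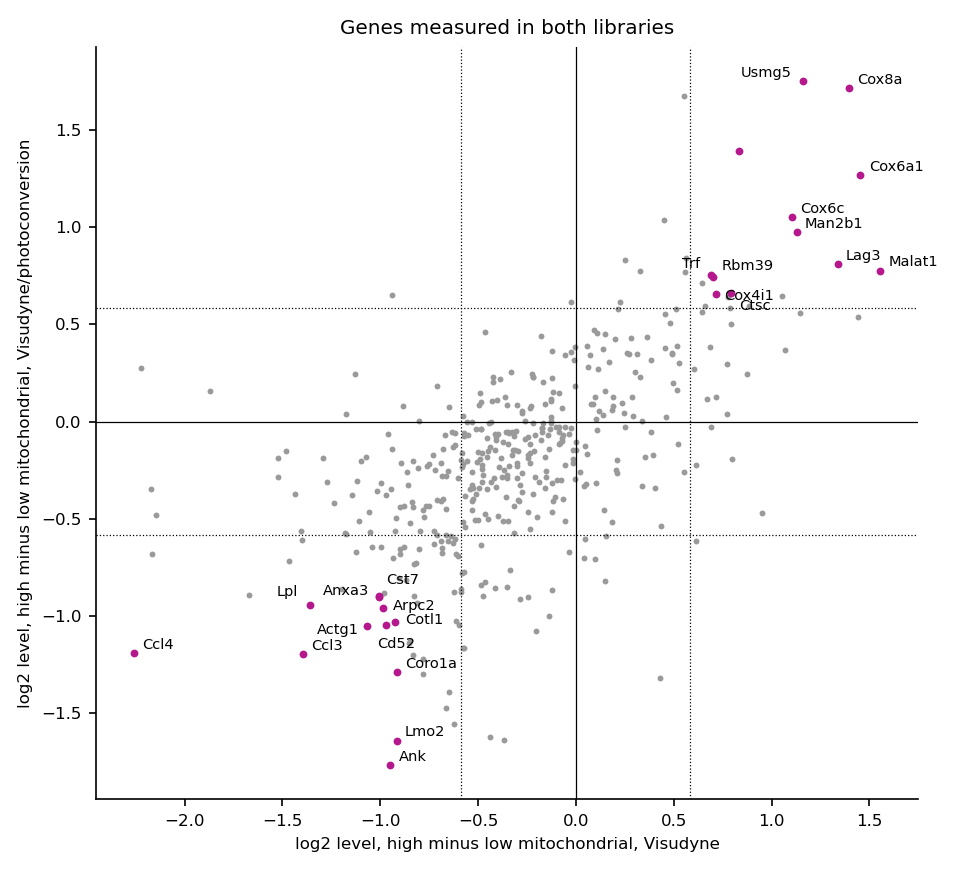
Log2 level in high- minus low-mitochondrial barcodes for 441 genes measured in both libraries, Visudyne on the x axis and Visudyne/photoconversion on the y axis. Dotted lines mark 1.5-fold and coloured points are the 12 highest and 12 lowest genes, not all of them labelled, with Cox8a and Malat1 at the upper right and Ccl4 and Ank at the lower left.

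Transcripts of astrocytes, neurons and oligodendrocytes, cells that lack the sort marker CD45, stood far higher in these barcodes than in low-mitochondrial ones. The 11 astrocyte markers summed to 2746 and 3604 CPM, against 276 and 243 CPM. The ratio was 9.94 (8.48 to 11.6) and 14.9 (12.7 to 17.3), and 3.24 and 4.08 against depth-weighted barcodes. Mt3, a zinc-binding metallothionein of astrocytes and neurons, gave 68 and 89 UMIs, the glutamate transporter Slc1a2 gave 58 and 56, the glycolytic enzyme Aldoc 27 and 44 and the filament protein Gfap 18 and 22. Ratios were 9.19 and 12.1 for Gfap and 29.6 and 27.5 for Slc1a2. Weighting by depth lowered Slc1a2 to log2 ratios of 3.90 and 2.53. Of the list, Gja1, a gap junction protein, had 0 UMIs in the control library.

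Neuronal and myelin transcripts came with them. The 11 neuron markers gave 66 and 100 UMIs and a ratio of 27.2 (19.1 to 38.5) and 35.3 (25.5 to 49.1), and 15.8 and 15.4 after depth weighting. Camk2a, a synaptic kinase, gave 30 and 39 of them, Nrgn, a calmodulin-binding protein of dendrites, 19 and 22, and the synaptic fusion protein Snap25 7 and 15. The markers of inhibitory neurons, Gad1 and Gad2, had 0 UMIs in both libraries. Of the myelin genes, Mbp (myelin basic protein) stood at 1721 and 1558 CPM, against 104 and 82 CPM, a ratio of 16.6 (13.3 to 20.5) and 19 (14.8 to 24.4). Weighting by depth lowered Mbp to log2 ratios of 2.62 and 2.18. Mobp gave 25 and 22 UMIs. The list as a whole had a lower ratio, 3.27 (2.9 to 3.68) and 3.43 (3.0 to 3.9), and Trf, with 126 and 111 UMIs, had ratios of only 1.61 and 1.68.

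The 3 classes of transcript were often found in the same barcodes. With every barcode thinned to 300 UMIs without mt- genes, which left out 5 and 3 high- and 10 and 1 low-mitochondrial barcodes as too shallow, at least 1 astrocyte UMI was found in 30 of 100 (30%, 21.2 to 40%) high-mitochondrial barcodes of the control library and 31 of 72 (43.1%, 31.4 to 55.3%) after photoconversion. The shares were 8.81% and 9.18% in low-mitochondrial barcodes, and 6.96% and 7.46% in the microglia-like clusters as a background level. UMIs of at least 2 of the astrocyte, neuron and oligodendrocyte lists (Trf left out) were found together in 22 of 100 (22%, 14.3 to 31.4%) and 22 of 72 (30.6%, 20.2 to 42.5%) high-mitochondrial barcodes. In low-mitochondrial barcodes it was 13 of 545 (2.39%, 1.28 to 4.04%) and 3 of 316 (0.949%, 0.196 to 2.75%). Microglia markers made up a median of 3.33% and 3.5% of the thinned UMIs in those high-mitochondrial barcodes. In high-mitochondrial barcodes with none of the 3 lists they made up 13.3% and 15.3%. At least 1 microglia marker UMI was present in all barcodes of every set at this depth. Doublets and free RNA were not modelled, and their part in these counts was not tested.

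Among barcodes too shallow to pass the gene minimum, only those with over 10% mitochondrial UMIs held the same transcripts at still higher levels. They had astrocyte markers at 7780 and 7494 CPM and neuron markers at 1367 and 2438 CPM, with a median of 61 and 46 UMIs. Shallow barcodes at or below 10% had astrocyte markers at 1284 and 597 CPM and neuron markers at 65.8 and 52.7 CPM. Nuclear-encoded oxidative phosphorylation genes followed, at 26703 and 30158 CPM above the limit and 9877 and 9592 CPM below it.

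Nuclear-encoded subunits of the respiratory chain and of ATP synthase were higher beside the mitochondrial transcripts that chose the barcodes. The 24 genes summed to 14412 and 15190 CPM, against 9571 and 9528 CPM, a ratio of 1.51 (1.42 to 1.6) and 1.59 (1.5 to 1.69). Of 15 measured in both libraries, 5 were higher past 1.5-fold in both and 1 lower, and the list's median log2 ratio was 0.32 and 0.60. Over all measured genes 3.85% were higher and 12.7% lower. The ratios were 1.57 and 1.5 for Cox7c, 1.76 and 2.47 for the complex I subunit Ndufb9 and 0.553 and 0.591 for Ndufa1, the lower one. The list was highest in the astrocyte-like barcodes, at 39971 and 30844 CPM against 6975 and 7932 CPM in the other high-mitochondrial barcodes. Outside that cluster its ratio to low-mitochondrial barcodes was below 1, at 0.735 and 0.841, or 1.07 and 1.13 with depth weighting. Genes of mitochondrial upkeep, such as those for import, dynamics and mitophagy, had a ratio of 1.3 (1.08 to 1.55) and 0.954 (0.766 to 1.18), and mitochondrial ribosomal protein genes 0.942 (0.837 to 1.06) and 0.834 (0.734 to 0.943).

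Malat1 (ENSMUSG00000092341, chr19:5795690-5802672, minus strand), a long noncoding RNA kept in the nucleus, had the opposite pattern across clusters. It stood at 40175 and 21227 CPM, against 13667 and 12387 CPM, a ratio of 2.94 (2.83 to 3.05) and 1.71 (1.63 to 1.8). In high-mitochondrial barcodes outside the astrocyte-like cluster its median share was 6.37% and 2.27% of UMIs without mt- genes, reaching 22.7% and 17.4%. Low-mitochondrial barcodes outside the cluster had medians of 1.45% and 1.07%. Inside the cluster Malat1 had no UMI in 88.9% and 69.7% of high-mitochondrial barcodes, against 15.4% and 28.6% outside it. Low-mitochondrial barcodes of the cluster lacked it too, in 86.2% and 90.9% of cases. Against depth-weighted low-mitochondrial barcodes the ratio of Malat1 was 0.989 and 0.793, and 1.14 and 1.03 outside the cluster. Neat1, another nuclear RNA, had ratios of 2.93 (1.22 to 6.04) and 1.09 (0.22 to 3.35).

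Ribosomal protein genes were higher where Malat1 was low. They stood at 302363 and 310753 CPM in astrocyte-like and 109120 and 160264 CPM in other high-mitochondrial barcodes, against 200189 and 216792 CPM in low-mitochondrial ones. Of 77 measured in both libraries, 0 were higher and 0 lower past 1.5-fold, with a median log2 ratio of -0.42 and -0.07. High-mitochondrial barcodes outside the cluster had a ratio of 0.548 and 0.746, or 0.831 and 0.967 with depth weighting.

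Microglial identity genes were present throughout. The 12 markers summed to 121359 and 132114 CPM, against 120469 and 116080 CPM, with a median log2 ratio of -0.10 and 0.00. Of 12, 0 were higher and 1 lower past 1.5-fold in both libraries. Csf1r, the receptor for microglial survival signals, had ratios of 1.39 and 1.42. The lower one was Aif1, which encodes the actin-binding protein Iba1, at 0.641 and 0.641. Homeostatic genes, which surveilling microglia express, had a ratio of 1.14 (1.08 to 1.2) and 0.997 (0.939 to 1.06). The purine receptor P2ry12 (ENSMUSG00000036353, chr3:59216272-59262871) stood at 1873 and 1532 CPM, against 1972 and 1632 CPM, and the surface protein Tmem119 had ratios of 1.13 (0.882 to 1.44) and 1.05 (0.792 to 1.36). Of 12 homeostatic genes measured in both libraries, 0 were higher and 0 lower past 1.5-fold, with a median log2 ratio of 0.19 and 0.00. In the astrocyte-like barcodes this list stood at 3312 and 3942 CPM, and at 24274 and 20104 CPM in the others. With depth weighting the homeostatic ratio was 0.814 and 0.772, and those of P2ry12 and Cx3cr1, the fractalkine receptor, were 0.622 and 0.66 and 0.617 and 0.643.

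Disease-associated genes, which microglia induce near amyloid plaques, had ratios below 1 against all low-mitochondrial barcodes. The list whose induction does not need the receptor Trem2 had a ratio of 0.838 (0.813 to 0.864) and 0.867 (0.842 to 0.892), and the Trem2-dependent list 0.702 (0.658 to 0.747) and 0.727 (0.683 to 0.772). Of the former 0 of 8 measured genes were higher and 1 lower past 1.5-fold in both libraries, and of the latter 0 of 6 and 3 of 6. Over all measured genes 3.85% were higher and 12.7% lower, so 1 of 8 lies near that share. Median log2 ratios were -0.33 and -0.31 for the first list and -0.75 and -0.72 for the Trem2-dependent list. Apoe, the lipid carrier, stood at 10072 and 12113 CPM, against 8868 and 11644 CPM. Trem2 itself had ratios of 0.708 (0.63 to 0.794) and 0.788 (0.707 to 0.875), its adaptor Tyrobp 0.604 and 0.644, and Cd9, a membrane tetraspanin, 0.77 and 0.698. Depth weighting moved the first list to 1.14 and 1.14 and the Trem2-dependent list to 0.897 and 0.942, and Apoe to 2.02 and 1.58. The first list thus lay below 1 against all low-mitochondrial barcodes and above 1 against those of like depth.

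**Figure D5:**
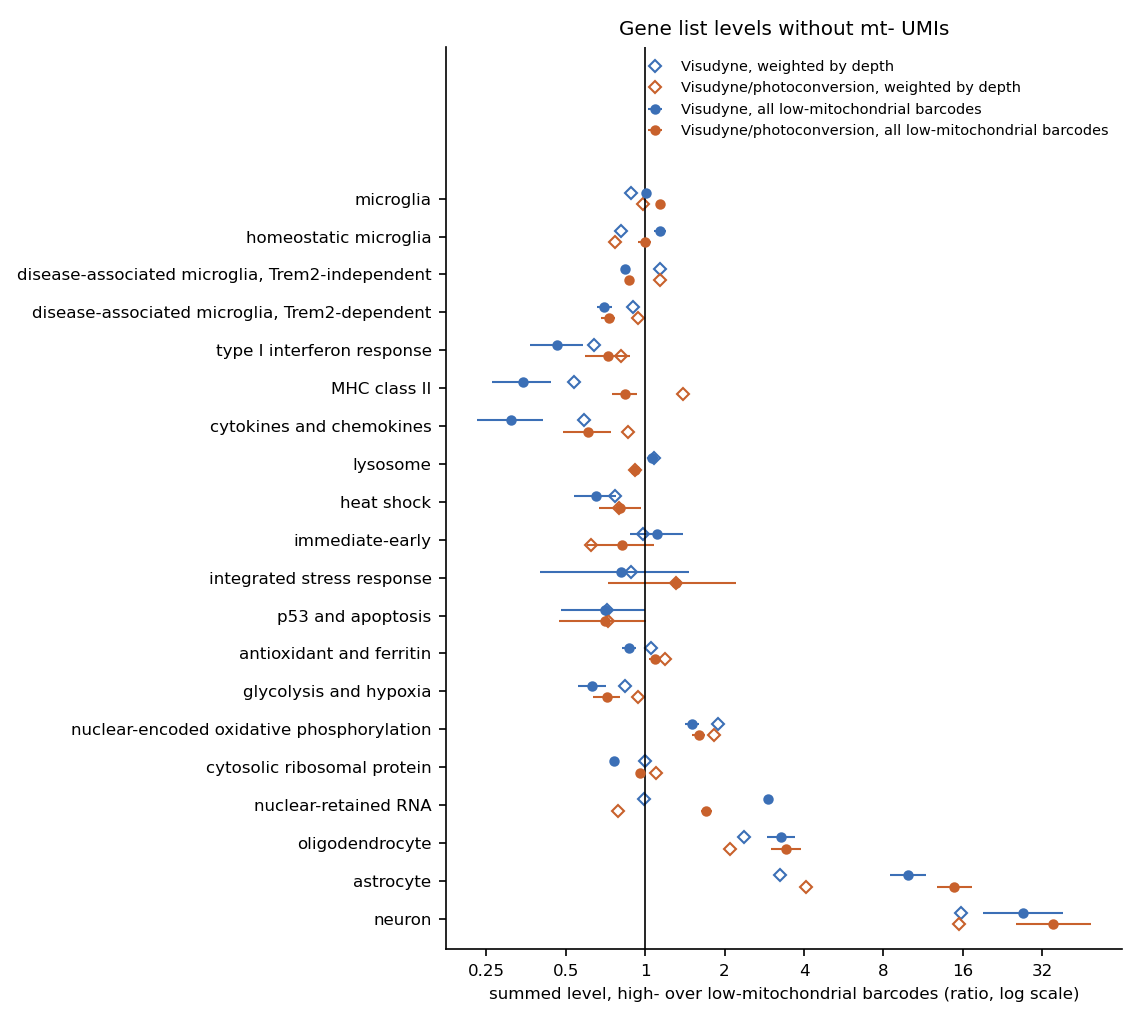
Ratio of the summed level of 20 gene lists in high- over low-mitochondrial barcodes (log scale) for both libraries. Filled points with exact 95% intervals use all low-mitochondrial barcodes, and open diamonds weight these to the same depths. Neuron and astrocyte lists lie far to the right in either form, while nuclear-retained RNA moves to 0.99 and 0.792.

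Immune-response lists had ratios below 1 in both libraries. MHC class II genes, which present antigen to CD4 T cells, gave 63 and 345 UMIs, with ratios of 0.344 (0.264 to 0.44) and 0.838 (0.751 to 0.933). In the photoconversion library 103 of those UMIs lay in 1 barcode, and without it the ratio was 0.603 (0.529 to 0.685). Depth weighting gave 0.538 and 1.39, with that barcode included. It was not repeated without the barcode, so it is not shown that the 2 libraries lie on either side of 1. Cytokines and chemokines had ratios of 0.311 (0.23 to 0.411) and 0.605 (0.489 to 0.74), from 50 and 97 UMIs, and type I interferon response genes 0.463 (0.366 to 0.579) and 0.724 (0.592 to 0.876). The interferon-induced membrane protein Bst2 had ratios of 0.424 and 0.536, and was lower against depth-weighted barcodes as well, at 0.588 and 0.63. Depth weighting brought the cytokine list to 0.588 and 0.858. Of the genes measured in both libraries, 1 of 4 MHC class II, 2 of 3 cytokine and 1 of 2 interferon genes were lower past 1.5-fold and 0 higher, with median log2 ratios of -2.17 and -0.24, -2.15 and -1.19 and -1.20 and -0.53. Over all measured genes 12.7% were lower and 3.85% higher, and these lists had few measured genes. Whether the 2 libraries differed in these ratios was not tested.

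Lysosomal genes, which microglia need to degrade what they engulf, lay near 1, with ratios of 1.06 (1.02 to 1.11) and 0.915 (0.868 to 0.964), and 0 of 12 were higher and 1 lower past 1.5-fold in both libraries, with a median log2 ratio of -0.02 and -0.25. Their ratios ran from 1.73 and 1.5 for the protease legumain (Lgmn) and 1.56 and 1.47 for prosaposin (Psap) to 0.57 and 0.632 for the cholesterol carrier Npc2.

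Stress gene lists showed no ratio above 1 that both libraries shared beyond counting error. Heat shock genes, the chaperones that cells induce when proteins misfold, had ratios of 0.65 (0.539 to 0.776) and 0.804 (0.668 to 0.961), and 0 of 4 measured members were higher and 2 lower past 1.5-fold in both libraries, with a median log2 ratio of -0.71 and -0.57. Over all measured genes 3.85% were higher and 12.7% lower. The constitutive chaperone Hspa8 stood at 456 and 412 CPM, against 825 and 558 CPM. Hspa5, the chaperone of the endoplasmic reticulum, had ratios of 1.24 (0.851 to 1.74) and 1.69 (1.16 to 2.38). The inducible Hspa1a and Hspa1b had 0 UMIs in high-mitochondrial barcodes of both libraries. Immediate-early genes, induced rapidly after dissociation or other stimuli, gave 79 and 49 UMIs and ratios of 1.11 (0.875 to 1.39) and 0.816 (0.601 to 1.09). Fos had 0 UMIs in these barcodes. The integrated stress response list gave only 11 and 15 UMIs, and its ratios of 0.809 (0.40 to 1.46) and 1.31 (0.725 to 2.21) could not be told from 1. The p53 and apoptosis list, with 32 and 30 UMIs, had 0.707 (0.482 to 1.0) and 0.704 (0.472 to 1.01). Counts of this size leave most single stress genes without a measurable difference.

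Antioxidant and ferritin genes had ratios of 0.871 (0.818 to 0.927) and 1.09 (1.03 to 1.15), with 0 of 6 higher and 2 lower past 1.5-fold in both libraries and a median log2 ratio of -0.30 and 0.10. The 2 ferritin chains differed: the heavy chain Fth1 had 1.07 and 1.39 and the light chain Ftl1 0.642 and 0.664. The glutathione peroxidase Gpx1 had 0.548 and 0.419. Glycolytic and hypoxia genes had 0.631 (0.557 to 0.712) and 0.715 (0.633 to 0.805), with 0 of 6 higher, 1 lower and a median log2 ratio of -0.81 and -0.28. The counts of both lists stand beside 3.85% higher and 12.7% lower over all measured genes. Gapdh, a glycolytic enzyme, had ratios of 0.482 (0.373 to 0.614) and 0.635 (0.503 to 0.792). With depth weighting the glycolytic ratios were 0.841 and 0.939, and that of Gapdh 0.741 and 0.902. Cell cycle genes gave 8 and 6 UMIs, with 0 for Mki67 in both libraries.

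Markers of other cells of the brain and blood were scarce. Border macrophage markers gave 42 and 12 UMIs. In the control library 26 of these lay in 1 barcode, and without it the ratio went from 4.22 (2.98 to 5.84) to 1.63 (0.92 to 2.69). Endothelial and mural markers gave 47 UMIs in the control library, 35 of them in 1 barcode that held the pericyte gene Rgs5 and the matrix gene Vtn, and the ratio was 1.56 (1.13 to 2.09) with and 0.403 (0.207 to 0.707) without it. After photoconversion they gave 0 UMIs, against 476 in low-mitochondrial barcodes, and the exact interval of the ratio reached up to 0.176. That interval treats UMIs as independent, although such UMIs can lie in few barcodes. In thinned photoconversion barcodes, these markers were found in 0 of 72 high-mitochondrial (0 to 4.99%) and 10 of 316 low-mitochondrial barcodes (1.53 to 5.74%). The 2 intervals overlap, so a lower share of barcodes with these markers is not shown. Monocyte markers gave 1 and 3 UMIs and lymphocyte markers 3 and 1. Neutrophil markers, whose cells the Ly6G gate is meant to remove, gave 1 and 0, and 5 and 9 in low-mitochondrial barcodes. Barcodes below 200 genes held 167 and 651 neutrophil UMIs. Haemoglobin and other red blood cell genes had none.

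With the astrocyte-like cluster set aside and low-mitochondrial barcodes weighted to the same depths, few genes separated the remaining 78 and 42 high-mitochondrial barcodes from the low-mitochondrial ones. Setting the cluster aside was chosen after the data were seen. Of 274 genes measured in both libraries, 4 were higher (1.46%) and 6 lower (2.19%) past 1.5-fold. The higher genes were Apoe, with ratios of 2.13 and 1.9, Man2b1 with 1.99 and 2.02, Trf with 1.54 and 1.59 and the cytokine receptor gene Crlf2. The lower ones were the chemokine Ccl3, with 0.508 and 0.65, the ribosomal protein gene Rpl27, with 0.60 and 0.657, and Ywhah, Naca, Ly6e and Cfl1. Microglia markers stood at 0.977 and 1.12, homeostatic genes at 0.922 and 0.913 and Trem2-dependent disease-associated genes at 1.0 and 1.08. Neuron markers still had ratios of 8.89 and 14.9 and astrocyte markers 1.35 and 2.92. The neuron ratios rest on 11 and 26 UMIs, and after photoconversion 14 of these, with 18 of the 48 astrocyte UMIs, lay in 1 barcode of 9151 UMIs. Without the barcode of each library with most UMIs of the list, neuron ratios were 6.9 and 8.22 and astrocyte ratios 1.12 and 1.9. Without depth weighting the same barcodes had 17 of 302 genes higher (5.63%) and 71 lower (23.5%), 7 and 30 of them also past the fold with the cluster included.

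Between the 2 libraries, the high-mitochondrial barcodes of the photoconversion library, summed, held more MHC class II and cytosolic ribosomal protein RNA and less Malat1 than those of the control library. Of 438 measured genes 53 (12.1%) were higher and 49 (11.2%) lower past 1.5-fold. The makeup differed as well, with 25.7% of control and 44% of photoconversion barcodes astrocyte-like. So did the median depth without mt- UMIs, at 551 and 770 UMIs. The list and gene ratios between libraries were not weighted by depth, and the part of depth in them was not tested. Outside that cluster 46 of 280 measured genes were higher and 29 lower. The MHC class II list had a photoconversion-to-control ratio of 5.57 (4.25 to 7.41) among high- and 2.28 (2.21 to 2.36) among low-mitochondrial barcodes. Outside the astrocyte-like cluster it was 6.09 (4.62 to 8.14), and without the richest barcode of each library 4.61. Its chains H2-Ab1 and H2-Aa had 15.3 (6.26 to 48.4) and 7.73 (3.04 to 25.2), and Cd74, the invariant chain, had 15 UMIs in control barcodes and 156 in photoconversion barcodes, a ratio of 10.6 (6.22 to 19.4). Low-mitochondrial barcodes had 2.47, 2.55 and 2.9 for these 3 genes. All these ratios compare summed UMIs. In thinned high-mitochondrial barcodes, at least 1 MHC class II UMI was found in 22 of 100 (14.3 to 31.4%) and 20 of 72 (17.9 to 39.6%). These intervals overlap, so a larger share of barcodes with MHC class II RNA is not shown. At least 3 UMIs were found in 2 of 100 and 7 of 72. The cluster led by H2-Eb1 and H2-Aa held 0 and 4 high-mitochondrial barcodes.

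Ribosomal protein genes had a ratio of 1.36 (1.33 to 1.39) among high- and 1.08 (1.08 to 1.09) among low-mitochondrial barcodes, and 1.47 (1.42 to 1.52) outside the cluster. Cytokines and chemokines had 1.97 (1.39 to 2.83) among high- and 1.01 (0.971 to 1.06) among low-mitochondrial barcodes, and 2.63 (1.76 to 4.0) outside. Inside the cluster the ratio of this list was 0.776 (0.349 to 1.73). After photoconversion 26 of its 97 UMIs lay in 1 barcode. Without the richest barcode of each library the ratio was 2.13 (1.42 to 3.25). Nuclear-retained RNA had 0.528 (0.497 to 0.56) among high- and 0.907 (0.891 to 0.923) among low-mitochondrial barcodes, and 0.594 (0.56 to 0.631) outside. The 6 single genes named for the lowest ratios were Son with 0.346 (0.187 to 0.61), Adap2os with 0.372 (0.191 to 0.687), Srsf2 with 0.385 (0.192 to 0.729), Pnisr with 0.389 (0.188 to 0.756), Atp6ap2 with 0.396 (0.197 to 0.752) and Canx with 0.427 (0.205 to 0.839). Among low-mitochondrial barcodes these 6 had ratios of 0.947, 0.851, 1.04, 0.812, 0.731 and 1.02. Son and Srsf2 act in RNA splicing, and Canx is a chaperone of the endoplasmic reticulum. Astrocyte markers had a ratio of 1.31 (1.1 to 1.57) among high- and 0.878 (0.775 to 0.994) among low-mitochondrial barcodes. Neuron markers had 1.54 (1.12 to 2.14) among high- and 1.19 (0.833 to 1.68) among low-mitochondrial barcodes. Outside the cluster the high-mitochondrial ratios were 1.5 (0.954 to 2.36) for astrocyte and 2.73 (1.3 to 6.11) for neuron markers. Inside it they were 0.933 (0.765 to 1.14) and 0.974 (0.678 to 1.41). Of the 26 neuron UMIs outside it after photoconversion, 14 lay in 1 barcode. Homeostatic genes had 0.766 (0.71 to 0.828) among high- and 0.874 (0.86 to 0.887) among low-mitochondrial barcodes, and 0.828 (0.765 to 0.897) outside the cluster.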

How the data were processed

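The authors deposited, per the file headers, raw UMI count matrices of 31053 genes by 2000 barcodes per library, made with Cell Ranger 3.0.2. The submitters' processing notes also name bcl2fastq and mm10. No further filter by the authors is given in the sources used here, and the deposited counts were used as they stand.

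Members were barcodes with at least 200 genes and over 10% mt- UMIs. UMIs were summed per set and library without the 13 mt- genes. Ratios carry exact conditional binomial intervals, levels exact Poisson and shares exact Clopper-Pearson intervals, and 0.5 counts were added for log2 ratios. No doublet caller was run and no ambient correction made. Barcodes were clustered with scanpy 1.11.5 (10000 UMIs per barcode, log1p, 2000 variable genes, 20 components, 15 neighbours, Leiden 0.8). A cluster was named from at least 3 markers among its 10 leading genes. Otherwise it was microglia-like where an average microglia marker had UMIs in at least 50% of its barcodes. Such a cluster stayed unnamed if a marker of another cell type was among the leading genes. It also stayed unnamed if its median depth lay far below the library's and no microglia marker was among them. Alternatives covered the limits, depth, weighting, scaling (edgeR 4.0.16 TMM) and clustering. Some of them, all those on the astrocyte-like cluster among them, were chosen after seeing the data.

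Named genes were the 12 highest and 12 lowest in both libraries, the 6 most extreme in each direction between libraries, 4 per list and a fixed few, 128 in all. Some of these are not reported here. A gene outside them was named after its values were seen. Members and lists were chosen with earlier results of these data known. Of the list entries, 1 is not analysed here. The gene calls and ratio intervals were tested on simulated sums that held no variation between barcodes. Clustering, thinning and depth weighting were not tested in this way.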

Additional observations from a re-analysis of the deposited data

Results flagged for a closer look

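In 3 gene lists the high-mitochondrial barcodes lay above the low-mitochondrial ones in 1 library and below them in the other, and the difference between the libraries was not tested. Endothelial and mural markers had a ratio of 1.56 in the control library and 0 UMIs after photoconversion. Without 1 barcode that held 35 of the 47 UMIs, the control ratio was 0.403, below 1 as well. Lysosomal genes had 1.06 in the control library and 0.915 after photoconversion, and outside the astrocyte-like cluster both were above 1, at 1.30 and 1.19. Antioxidant and ferritin genes had 1.09 after photoconversion and 0.871 in the control library, and outside the cluster both were below 1, at 0.569 and 0.787.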

How the results depend on the processing

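High-mitochondrial barcodes were 35.6% of the control and 37.5% of the photoconversion barcodes with a limit of 5%, 5.76% and 7.40% with 20%, 21.7% and 25.5% with at least 100 genes, and 6.39% and 11.2% with at least 400. Genes past 1.5-fold in both libraries numbered 17 higher and 56 lower of 441 measured. Each setting measured its own set of genes, and the counts there were 31 lower of 1283 with the 5% limit (4 shared with the 56), 11 higher of 154 with the 20% limit (2 shared with the 17), 11 higher and 24 lower of 266 with 400 genes, and 11 higher of 436 with barcodes weighted equally. Thinning gave 2 higher and 9 lower of 149, depth weighting 11 lower of 397, 10 expected UMIs 37 higher of 826, and 50 expected UMIs 6 higher and 17 lower of 189. TMM scaling gave 3 higher and 252 lower of 564 and moved the median log2 ratio of measured genes to -0.91 and -0.59. From measured genes alone TMM gave 28 and 14 of 382, with medians of -0.05 and -0.01. Outside the astrocyte-like cluster with depth weighting 4 were higher and 6 lower of 274.

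Genes past 1.5-fold between libraries numbered 53 higher and 49 lower of 438 measured. Counted anew in each setting, 153 were lower of 1345 at 5%, 24 higher and 4 lower of 163 at 20%, 25 and 22 of 253 with 400 genes, 90 higher of 462 with equal weights, 27 lower of 284 without the 10 richest barcodes, 13 lower of 160 after thinning, 115 and 24 of 393 with TMM, 21 higher of 421 with TMM from measured genes, 134 and 186 of 907 at 10 expected UMIs, 25 and 8 of 196 at 50, and 29 lower of 280 outside the cluster.

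The astrocyte log2 ratio, 3.60 as the mean of both libraries, was 3.28 at 5%, 4.97 at 20%, 3.86 with 100 genes, 2.83 with equal weights, 3.06 thinned, 1.86 depth-weighted, 3.12 with TMM, 3.83 with TMM from measured genes, 2.06 outside the cluster and 0.98 there with depth weighting. In the same order of settings, with 400 genes or the 10 richest barcodes left out added where they moved it, the Trem2-dependent list (-0.49) was at -0.050, -1.24, -0.28 with 400 genes, -0.61 without the richest, -0.12 depth-weighted, -0.97 and -0.25 with the TMM forms, -0.20 outside and 0.056 there with depth weighting. Oxidative phosphorylation (0.63) was at 0.20, 1.65, 0.76 with 100 genes, 0.88 with equal weights, 0.92 thinned, 0.89 depth-weighted, 0.14 and 0.86 with TMM, -0.35 outside and 0.14 there with depth weighting. Nuclear-retained RNA (1.16) was at 0.90, -0.16, 0.99 and 0.91 with 100 and 400 genes, 0.60 with equal weights, 1.31 without the richest, 0.57 thinned, -0.18 depth-weighted, 0.68 and 1.39 with TMM, 1.60 outside and 0.12 there with depth weighting.

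Of 53 lists and genes checked, 35 had a mean ratio past 1.5-fold. Of these, the direction changed at the 20% limit for nuclear-retained RNA (-0.16), Rbm39 (-0.54), Lag3 (-0.21), Ctsc (-0.65), Trf (-0.51) and Malat1 (-0.15), with depth weighting for nuclear-retained RNA (-0.18), Cst7 (0.016), Rbm39 (-0.13) and Malat1 (-0.18), and outside the cluster for oxidative phosphorylation (-0.35), Cox4i1 (-0.42) and Cox6c (-0.42). Outside it with depth weighting it changed for MHC class II (0.045), Cst7 (0.10), Lpl (0.21) and Cox6c (-0.019). For none of the 35 did it change under the other settings. Among all 53, which hold lists and genes nearer to 1 such as both disease-associated lists, 13 changed sign at 20%, 10 with depth weighting, 7 outside the cluster, 9 there with depth weighting, 5 and 7 with the TMM forms, 4 at 5%, 6 after thinning, 4 with equal weights, 3 without the 10 richest barcodes, 1 with 400 genes and 0 with 100 genes or scaled without ribosomal genes and Malat1. The cause was not tested. The matching cluster held 0.18% of control and 0% of photoconversion low-mitochondrial barcodes at Leiden resolution 0.4. After thinning, where it met no naming rule, it held 0% and 0.316% of them and 27.8% of high-mitochondrial photoconversion barcodes.

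The shallow depth limits genes with few UMIs, and 1 library per group leaves no replicate check. No paired analysis was possible because each group has 1 library.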
